A study of Homo sapiens with 27 samples.

Results

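LINC01029, COLEC12, PLEKHG1, SYTL3 and MYEOV were chosen by their difference from control: each was called with one sign in both MMP-2 shRNA lines at all 3 stages of culture. They are 5 of the 55882 gene symbols counted and 5 of the 23 that met this criterion. U2OS cells, a human osteosarcoma line, were expanded in 3 stable lines and collected 2 days before confluence (day −2, subconfluent), at confluence (day 0) and 2 days after it (day +2, overconfluent). Poly(A) RNA was sequenced from 3 replicates of each line and stage, 27 libraries in all. The question of the comparison with control was which genes depend on MMP-2, a secreted protease that cleaves gelatin and collagens and is also found in the nucleus, at each stage.

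All 3 lines were transduced with lentivirus and selected with puromycin. The control, called WT in the sample titles, carried the pLKO.1 vector without a hairpin, and MMP2sh1 and MMP2sh2 each carried the same vector with a different short hairpin RNA (shRNA) against MMP2. Each group was therefore defined by 1 line (pLKO.1 control, MMP2sh1 or MMP2sh2) and 1 day (−2, 0 or +2), and the vector and the selection were common to all 9 groups. The control has no hairpin, so effects common to any hairpin are not separated from those of lower MMP2.

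Each library held between 33580129 and 59374327 counts on genes (median 40075178). Levels are given as CPM, counts scaled to a common library size with TMM factors, which correct for differences in library composition. MMP2 itself was at 17.3% to 19.8% of control in MMP2sh1 and at 48.6% to 61.9% of control in MMP2sh2 over the 3 days, and no MMP2sh1 or MMP2sh2 library overlapped the control libraries of its day. Of 13 mesenchymal and osteoblast markers, 8 had a median of at least 1 CPM, RUNX2 and COL1A1 among them, whereas COL1A2, SP7, BGLAP, IBSP and TWIST1 were below it and IBSP was at 0 in every library. The summed level of these 13 markers was 3195 to 4327 CPM. That of 7 epithelial markers was 7.19 to 18.9 CPM, that of 5 leukocyte markers 0.207 to 1.87 CPM and that of 3 endothelial markers 1.63 to 5.18 CPM. A median of at least 1 CPM was reached by 2 epithelial markers (EPCAM and KRT14), 0 leukocyte markers and 1 endothelial marker (VWF). Replicate 1 of MMP2sh1 at day −2 stood apart from the other libraries of its group, where chi-square over genes, divided by its degrees of freedom, was 19.3 and 24.6 against replicates 2 and 3, which were at 7.79 to each other. Pairs within the other groups were at 4.74 to 13.1. In bulk RNA, fewer cells that express a gene and less of its RNA per cell cannot be told apart.

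The 5 genes belong to different families. COLEC12 encodes a membrane-bound collectin, a scavenger receptor that binds modified lipoproteins and sugars through a lectin domain. PLEKHG1 encodes a guanine nucleotide exchange factor, one of the proteins that switch on small GTPases. SYTL3 encodes a synaptotagmin-like protein, which binds RAB27 on vesicles and takes part in their docking at the plasma membrane. MYEOV, named for its overexpression in myeloma, lies in the 11q13 region that is amplified in several cancers together with CCND1. LINC01029 is a long intergenic non-coding RNA.

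On GRCh37, the same build as the hg19 used for alignment, the GENCODE annotation places LINC01029 on the minus strand of chromosome 18 from 75682593 to 75705687, with 2 exons in its canonical transcript. COLEC12 lies on the minus strand of the same chromosome, from 316737 to 500722, with 10 exons. PLEKHG1 (17 exons, 150921019 to 151164801) and SYTL3 (18 exons, 159071046 to 159185908) both lie on the plus strand of chromosome 6, 7906245 bases apart. MYEOV lies on the plus strand of chromosome 11, from 69061605 to 69182494. Reads were counted over exons without regard to strand, and reads on exons of more than one gene were discarded. An antisense gene covers 7.46% of the exon bases of COLEC12, MIR3918 covers 3.21% of those of SYTL3 and an antisense gene covers 0.146% of those of PLEKHG1, so reads from these stretches are uncertain. Exons of LINC01029 and MYEOV have no overlap with another gene in this annotation.

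RefSeq windows of the 250 bases before a transcription start (GRCh38.p14) matched 3 of the 5 genes, with 1 window for COLEC12, 3 for PLEKHG1 and 2 for SYTL3. The following 3 windows are shown because COLEC12 and PLEKHG1 had similar patterns over the libraries and SYTL3 the opposite one. Where a gene had several windows, the one with the letters of an AP-1 site was picked after the search. Sequences run 5′ to 3′ on the strand of the gene, and capitals mark a GC box (GGGCGG), an AP-1 site (TGACTCA) or a TATA box (TATAAA) on either strand.
COLEC12, chr18:500702-500951, minus strand: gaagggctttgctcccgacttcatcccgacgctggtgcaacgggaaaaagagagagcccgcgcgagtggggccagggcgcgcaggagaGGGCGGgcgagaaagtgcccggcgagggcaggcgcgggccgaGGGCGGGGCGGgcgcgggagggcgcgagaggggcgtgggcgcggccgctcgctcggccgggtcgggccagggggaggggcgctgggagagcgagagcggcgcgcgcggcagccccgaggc
PLEKHG1, the third start, chr6:150720849-150721098, plus strand: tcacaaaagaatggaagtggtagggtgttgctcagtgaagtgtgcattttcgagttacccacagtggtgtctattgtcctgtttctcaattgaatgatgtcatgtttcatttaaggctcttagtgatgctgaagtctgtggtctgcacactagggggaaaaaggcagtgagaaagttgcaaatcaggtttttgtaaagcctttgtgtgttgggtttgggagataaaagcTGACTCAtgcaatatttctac
SYTL3, the second start, chr6:158662697-158662946, plus strand: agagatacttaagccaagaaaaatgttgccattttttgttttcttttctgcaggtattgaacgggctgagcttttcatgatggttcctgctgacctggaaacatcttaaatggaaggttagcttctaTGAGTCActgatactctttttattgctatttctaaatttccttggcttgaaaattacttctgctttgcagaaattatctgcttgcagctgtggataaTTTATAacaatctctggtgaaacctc

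The COLEC12 window was 78.4% G and C, held 38 CpG dinucleotides and matched the GC box 3 times, of which a pair of matches overlapped. The PLEKHG1 window shown was 41.6% G and C with 1 CpG, and the SYTL3 window 36.4% with 1 CpG, against a median of 58% over 35116 windows of this length. Both of the latter held 1 AP-1 match, and the SYTL3 window also held 1 TATA box match, where both SYTL3 matches read on the opposite strand. Over all windows, 42.6% held the GC box, 4.2% the AP-1 letters and 10.7% the TATA box. The search also covered the CCAAT box (CCAAT, 32% of windows) and the E-box (CACGTG, 6.34%), neither of which was in the 3 windows shown. The PLEKHG1 and SYTL3 windows not shown held no AP-1 match. The first PLEKHG1 window held 1 TATA box match, the second 1 E-box match, and the first SYTL3 window no match. Since the windows shown were picked for AP-1 letters, their AP-1 matches cannot be weighed against the share over all windows. A match is a match of letters, and the counts do not tell which start was used.

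LINC01029 was lower in both MMP-2 shRNA lines at each day. At day −2 the control libraries were at 7.63, 5.85 and 5.44 CPM, the MMP2sh1 libraries at 1.46, 1.81 and 1.95 and the MMP2sh2 libraries at 2.39, 2.28 and 1.93. At day 0 they were at 5.13, 5.18 and 6.02 in the control, at 2.23, 2.41 and 3.12 in MMP2sh1 and at 3.02, 2.85 and 3.05 in MMP2sh2. At day +2 they were at 3.52, 2.58 and 2.35 in the control, at 1.63, 1.28 and 0.862 in MMP2sh1 and at 1.72, 1.34 and 1.06 in MMP2sh2. Every library of both shRNA lines was below every control library of its day. These levels rest on few reads, 36 to 441 counts per library, fewer than for the other 4 genes. Mean levels in MMP2sh1 were 27.6%, 47.6% and 44.7% of control at days −2, 0 and +2, and those in MMP2sh2 34.8%, 54.6% and 48.8%. The log2 fold change from control, the measure on which the gene was selected, lay between −1.86 (standard error 0.20, MMP2sh1 at day −2) and −0.89 (standard error 0.18, MMP2sh2 at day 0). In the order of the 9 group means, the control at day −2 (6.31 ± 1.17 CPM, SD, n = 3) and at day 0 (5.44 ± 0.499) stood first, with overlapping libraries, and above all other groups. From MMP2sh2 at day 0 (2.97 ± 0.106) down to MMP2sh1 at day +2 (1.26 ± 0.385), each group overlapped the next.

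COLEC12 was also lower in both shRNA lines, from a level that rose steeply with culture. At day −2 the control libraries were at 7.30, 9.54 and 10.8 CPM, the MMP2sh1 libraries at 4.0, 6.08 and 7.59 and the MMP2sh2 libraries at 6.46, 6.77 and 5.33. At day 0 they were at 26.9, 23.1 and 24.0 in the control, at 11.6, 9.73 and 11.5 in MMP2sh1 and at 11.6, 12.6 and 13.99 in MMP2sh2. At day +2 they were at 72.8, 67.5 and 83.9 in the control, at 44.6, 42.4 and 43.0 in MMP2sh1 and at 38.9, 35.1 and 38.3 in MMP2sh2. Libraries of MMP2sh1 and control overlapped at day −2, where 1 MMP2sh1 library stood above the lowest control library. This was the only overlap with control among the 30 sets of shRNA libraries (5 genes, 2 lines and 3 days), and the other 29 were apart, as the choice of the genes favours. Over all genes tested, 28.1% of such sets were apart from the control. Mean levels were 63.9%, 44.4% and 58.0% of control in MMP2sh1 and 67.1%, 51.6% and 50.0% in MMP2sh2 at days −2, 0 and +2. The log2 fold change ranged from −1.17 (standard error 0.09, MMP2sh1 at day 0) to −0.57 (standard error 0.15, MMP2sh2 at day −2). In order, the group means ran from the control at day +2 (74.8 ± 8.37 CPM) through MMP2sh1 (43.3 ± 1.16) and MMP2sh2 (37.4 ± 2.05) of that day to the control at day 0 (24.7 ± 1.98), with no overlap between neighbours. MMP2sh2 at day 0 (12.7 ± 1.21), MMP2sh1 at day 0 (10.96 ± 1.06) and the control at day −2 (9.21 ± 1.77) each overlapped the next. MMP2sh2 (6.18 ± 0.759) and MMP2sh1 (5.89 ± 1.80) at day −2 stood last and overlapped each other.

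PLEKHG1 had a like course, with the smallest distance from control at day +2. At day −2 the control libraries were at 7.75, 7.11 and 9.45 CPM, the MMP2sh1 libraries at 3.65, 3.99 and 4.05 and the MMP2sh2 libraries at 4.34, 5.37 and 3.68. At day 0 they were at 17.97, 18.8 and 19.4 in the control, at 8.91, 8.53 and 8.38 in MMP2sh1 and at 10.1, 7.91 and 8.56 in MMP2sh2. At day +2 they were at 56.6, 54.7 and 52.1 in the control, at 36.3, 38.7 and 37.6 in MMP2sh1 and at 44.9, 45.6 and 43.6 in MMP2sh2. Every shRNA library was below every control library of its day. Mean levels were 48.1%, 45.9% and 68.9% of control in MMP2sh1 and 55.1%, 47.3% and 82.1% in MMP2sh2. The log2 fold change went from −1.12 (standard error 0.10, MMP2sh1 at day 0) to −0.29 (standard error 0.07, MMP2sh2 at day +2). The control at day +2 (54.5 ± 2.27 CPM), MMP2sh2 at day +2 (44.7 ± 1.02), MMP2sh1 at day +2 (37.5 ± 1.24) and the control at day 0 (18.8 ± 0.730) followed each other without overlap. Next came both shRNA lines at day 0 and the control at day −2, at 8.86 ± 1.14 in MMP2sh2, 8.60 ± 0.277 in MMP2sh1 and 8.10 ± 1.21 in the control, which overlapped. MMP2sh2 (4.46 ± 0.848) and MMP2sh1 (3.90 ± 0.215) at day −2 overlapped each other and were below the rest.

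SYTL3 was higher in both shRNA lines at each day. At day −2 the control libraries were at 37.5, 39.0 and 38.2 CPM, the MMP2sh1 libraries at 59.8, 57.5 and 53.2 and the MMP2sh2 libraries at 42.4, 47.1 and 49.1. At day 0 they were at 24.7, 27.1 and 19.4 in the control, at 41.2, 40.9 and 39.9 in MMP2sh1 and at 37.2, 43.0 and 35.3 in MMP2sh2. At day +2 they were at 9.54, 10.5 and 11.4 in the control, at 13.96, 17.8 and 16.3 in MMP2sh1 and at 14.3, 14.3 and 12.8 in MMP2sh2. Every shRNA library was above every control library of its day. Mean levels were 149%, 171% and 153% of control in MMP2sh1 and 121%, 162% and 132% in MMP2sh2. The log2 fold change from control was lowest in MMP2sh2 at day −2, at 0.27 (standard error 0.07), and highest in MMP2sh1 at day 0, at 0.77 (standard error 0.08). MMP2sh1 (56.8 ± 3.36 CPM) and MMP2sh2 (46.2 ± 3.47) at day −2 led the order and did not overlap each other, although the lowest MMP2sh2 library of day −2 was below the highest MMP2sh2 library of day 0. MMP2sh1 at day 0 (40.7 ± 0.702), MMP2sh2 at day 0 (38.5 ± 3.98) and the control at day −2 (38.2 ± 0.733) each overlapped the next. The control at day 0 (23.7 ± 3.93) followed, then MMP2sh1 (16.0 ± 1.92) and MMP2sh2 (13.8 ± 0.888) at day +2, which overlapped, and last the control at day +2 (10.5 ± 0.918).

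MYEOV, the most highly counted of the 5 genes with 4354 to 16881 counts per library, was higher in both shRNA lines by a smaller fold. At day −2 the control libraries were at 261, 265 and 258 CPM, the MMP2sh1 libraries at 314.5, 295 and 298 and the MMP2sh2 libraries at 317, 310.4 and 334. At day 0 they were at 198, 218 and 222 in the control, at 279, 309 and 284 in MMP2sh1 and at 251, 264 and 260.5 in MMP2sh2. At day +2 they were at 124, 120 and 114.5 in the control, at 170.4, 160 and 152 in MMP2sh1 and at 156, 155 and 151 in MMP2sh2. Every shRNA library was above every control library of its day. Mean levels were 116%, 137% and 135% of control in MMP2sh1 and 123%, 121.5% and 129% in MMP2sh2. The log2 fold change from control lay between 0.21 (standard error 0.05, MMP2sh1 at day −2) and 0.45 (standard error 0.05, MMP2sh1 at day 0). MMP2sh2 at day −2 (320.5 ± 11.95 CPM), MMP2sh1 at day −2 (302 ± 10.6) and MMP2sh1 at day 0 (291 ± 16.2) led the order, each overlapping the next. The control at day −2 (261 ± 3.69) and MMP2sh2 at day 0 (258 ± 6.68) overlapped each other, and the control at day 0 (213 ± 12.9) stood alone. MMP2sh1 (161 ± 9.41) and MMP2sh2 (154 ± 2.95) at day +2 overlapped, and the control at day +2 (119 ± 4.55) was last.

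**Figure D1:**
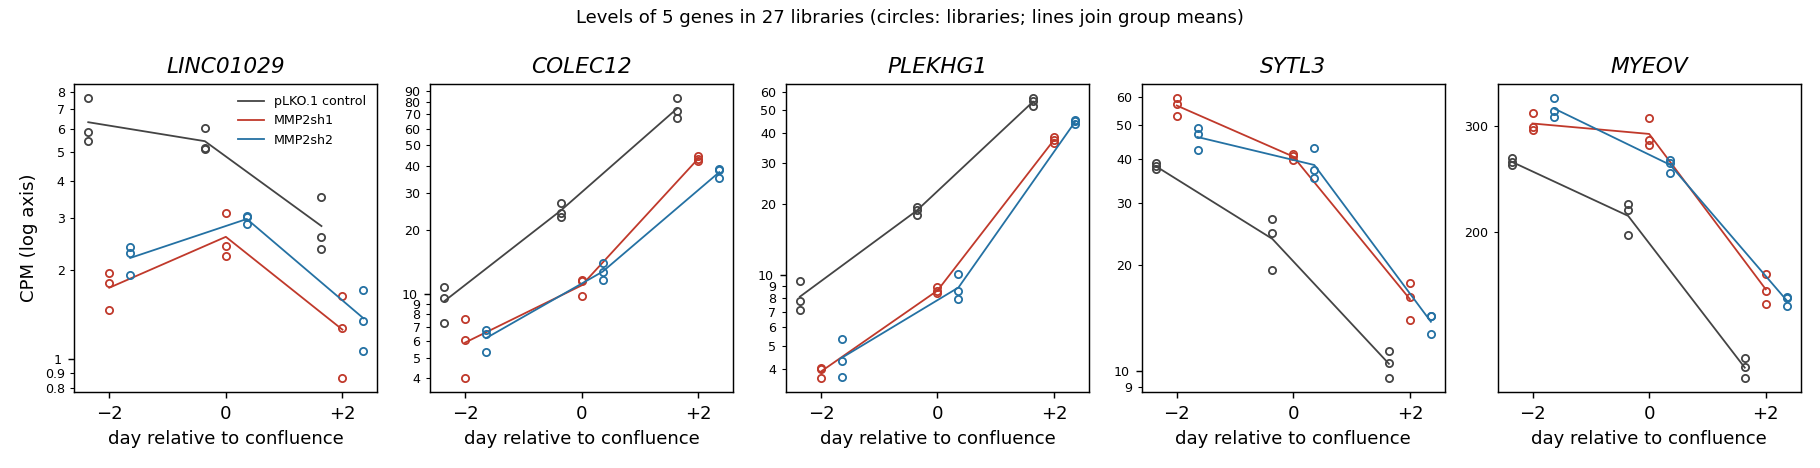
Level of each of the 5 genes in CPM (log axis, one scale per gene) by day relative to confluence, in the pLKO.1 control (black), MMP2sh1 (red) and MMP2sh2 (blue); circles are single libraries and lines join the means of 3. COLEC12 and PLEKHG1 rise with culture and are lower in the shRNA lines, SYTL3 and MYEOV fall and are higher, and LINC01029 is lower in the shRNA lines at every day.

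Levels of different genes can be compared per kilobase of exon, here in the GENCODE annotation, which may differ from that used for counting. In the control at day −2 the order was MYEOV at 69.5 CPM per kilobase, SYTL3 at 13.2, LINC01029 at 1.42 ± 0.262, COLEC12 at 1.26 ± 0.241 and PLEKHG1 at 0.787. LINC01029 and COLEC12 were within their spread of each other. MYEOV was first in every group. In the control at day +2, COLEC12 (10.2 ± 1.14 CPM per kilobase) and PLEKHG1 (5.29 ± 0.220) were above SYTL3 (3.62 ± 0.317). In MMP2sh1 at day +2, COLEC12 (5.90 ± 0.158) and SYTL3 (5.53 ± 0.664) were within their spread of each other and PLEKHG1 was at 3.65 ± 0.120. In MMP2sh2 at day +2, the levels per kilobase were 5.09 ± 0.280 for COLEC12, 4.77 ± 0.307 for SYTL3 and 4.34 ± 0.0994 for PLEKHG1.

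The selection used the comparison of each shRNA line with control, so that all 5 genes passed it 6 times by choice and no test is given for them there. Of all genes tested, 11.6% were called in MMP2sh1 against control at day −2, 16.8% at day 0 and 14.8% at day +2, and 11%, 12.9% and 6.32% in MMP2sh2, at an adjusted p (Benjamini-Hochberg) under 0.05 from the quasi-likelihood test of edgeR. Of 17496 genes tested in all 6 comparisons, 23 (0.131%) were called with one sign in each, 15 lower and 8 higher than control. The 6 comparisons share 9 control libraries, so those of the 2 lines at one day are not independent. Ordered by their mean log2 fold change over these comparisons, LINC01029 (−1.26) was second of the 15 after MMP2 (−1.65), and before COL3A1 (−1.11). COLEC12 (−0.85) and PLEKHG1 (−0.82) followed COL3A1, at places 4 and 5, and came before PCDHB2 (−0.74). SYTL3 (0.55) was the first of the 8 higher genes, before SEMA7A (0.49). MYEOV (0.34) was at place 5, between RP11-304L19.5 (0.38) and MT-ND2 (0.32). By the largest of a gene's 6 adjusted p-values from edgeR, which are the values that made the selection, ICOSLG was the nearest of the 23 genes to the threshold of 0.05, at 0.0476, and SLC1A3, called in 5 comparisons, was just outside it, at 0.0559 in the sixth. If control replicate 1 of day −2 was left out, 13 genes met the criterion, SYTL3 and MYEOV no longer among them, and if control replicate 1 of day +2 was left out, LINC01029 and SYTL3 no longer met it. Without replicate 1 of MMP2sh1 at day −2, which stood apart, 24 genes met the criterion and COLEC12 did not. The log2 fold changes of that line from control at day −2 were then −1.755 for LINC01029, −0.43 for COLEC12, −1.01 for PLEKHG1, 0.53 for SYTL3 and 0.18 for MYEOV.

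**Figure D2:**
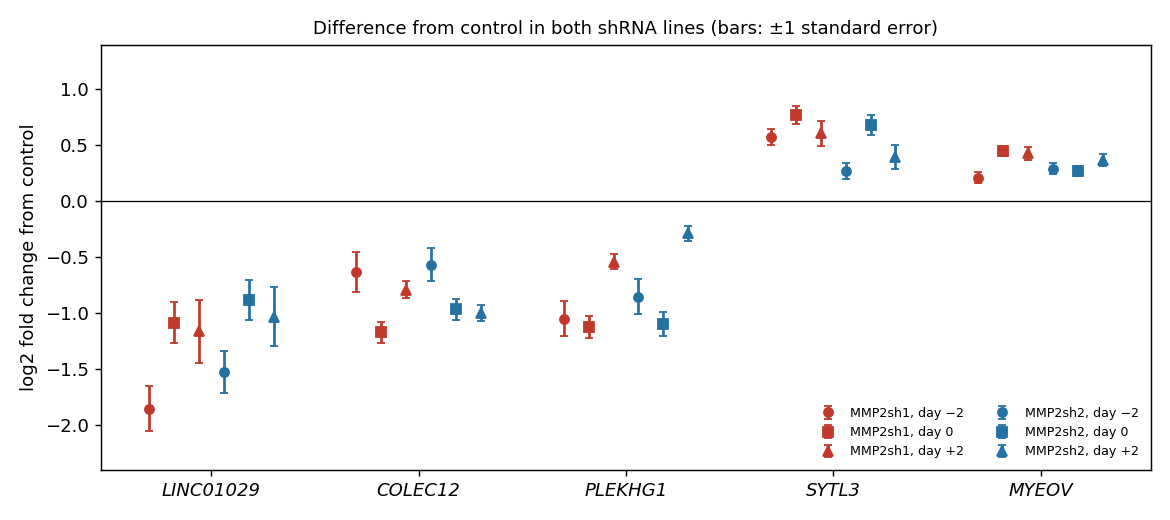
Log2 fold change from the pLKO.1 control of the same day for each gene in MMP2sh1 (red) and MMP2sh2 (blue) at day −2 (circles), day 0 (squares) and day +2 (triangles), each from 3 against 3 libraries, with bars of 1 standard error. The genes were selected for the common sign of their 6 values, which range from −1.86 for LINC01029 to 0.77 for SYTL3.

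The change between days within a line was not used to select the genes. In the control, COLEC12 and PLEKHG1 rose and SYTL3, MYEOV and LINC01029 fell from day −2 to day +2, so 5 of 5 were called, where 56.8% of all genes tested were called. COLEC12 rose 8.27-fold (log2 fold change 3.05, standard error 0.10, adjusted p = 3.1e-19, edgeR's quasi-likelihood test) and PLEKHG1 6.79-fold (2.76, standard error 0.09, adjusted p = 1.3e-19, edgeR). SYTL3 fell to 0.276 of its level at day −2 (log2 fold change −1.86, standard error 0.08, adjusted p = 2.3e-16, edgeR) and MYEOV to 0.458 (−1.13, standard error 0.05, adjusted p = 4.4e-17, edgeR). LINC01029 fell to 0.444 of its level (−1.17, standard error 0.19, adjusted p = 7.0e-06, edgeR). In all 5 genes the 3 control libraries of day +2 were apart from those of day −2, as they were for 62% of all genes tested. From day −2 to day 0, 4 of 5 were called (35.5% of all genes) with log2 fold changes of 1.44 for COLEC12, 1.22 for PLEKHG1, −0.68 for SYTL3 and −0.29 for MYEOV, and LINC01029 was at −0.22 (standard error 0.16, adjusted p = 0.30, edgeR). From day 0 to day +2, 5 of 5 were called (41.4% of all genes), with 1.62 for COLEC12, 1.56 for PLEKHG1, −1.16 for SYTL3, −0.81 for MYEOV and −0.93 for LINC01029.

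In both shRNA lines, COLEC12 and PLEKHG1 also rose and SYTL3 and MYEOV fell over the expansion. From day −2 to day +2, 4 of 5 were called in MMP2sh1 (54.9% of all genes) and 4 of 5 in MMP2sh2 (54.7%). COLEC12 rose by 2.87 (standard error 0.14) on the log2 scale in MMP2sh1 and by 2.60 (standard error 0.10) in MMP2sh2, and PLEKHG1 by 3.26 (standard error 0.11) and 3.32 (standard error 0.11). SYTL3 changed by −1.83 (standard error 0.09) and −1.74 (standard error 0.09), and MYEOV by −0.92 (standard error 0.06) and −1.05 (standard error 0.06). LINC01029 was not called, at −0.48 in MMP2sh1 (standard error 0.33, adjusted p = 0.24, edgeR) and −0.67 in MMP2sh2 (standard error 0.29, adjusted p = 0.053, edgeR). Without replicate 1 of MMP2sh1 at day −2, the same 4 genes were called in MMP2sh1, with COLEC12 at 2.66, PLEKHG1 at 3.215, SYTL3 at −1.80 and MYEOV at −0.89, and LINC01029 was at −0.59. In MMP2sh2 LINC01029 was called by DESeq2 (adjusted p = 0.043), by edgeR with median-of-ratios scaling (0.047) and in 1 edgeR fit of all 27 libraries (0.013).

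In the shRNA lines LINC01029 was called only in the second step of the expansion, from day 0 to day +2. From day −2 to day 0 its log2 fold change was 0.56 in MMP2sh1 (standard error 0.25, adjusted p = 0.096, edgeR) and 0.43 in MMP2sh2 (standard error 0.23, adjusted p = 0.16, edgeR), neither of which was called. From day 0 to day +2 it fell by 1.02 on the log2 scale (standard error 0.28, adjusted p = 0.0048, edgeR) in MMP2sh1 and by 1.09 (standard error 0.26, adjusted p = 0.00093, edgeR) in MMP2sh2. In that second step 5 of 5 genes were called in MMP2sh1 (46% of all genes) and 5 of 5 in MMP2sh2 (45.5%). In the first step 3 of 5 were called in MMP2sh1 (32.7% of all genes) and 4 of 5 in MMP2sh2 (30.3%), MYEOV being at −0.06 in MMP2sh1 (standard error 0.05, adjusted p = 0.44, edgeR). SYTL3 changed by −0.27 in the first step in MMP2sh2 (standard error 0.08, adjusted p = 0.011, edgeR), a call lost without replicate 1 (−0.24, adjusted p = 0.058, edgeR) or replicate 3 (−0.21, adjusted p = 0.084, edgeR) of MMP2sh2 at day 0.

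**Figure D3:**
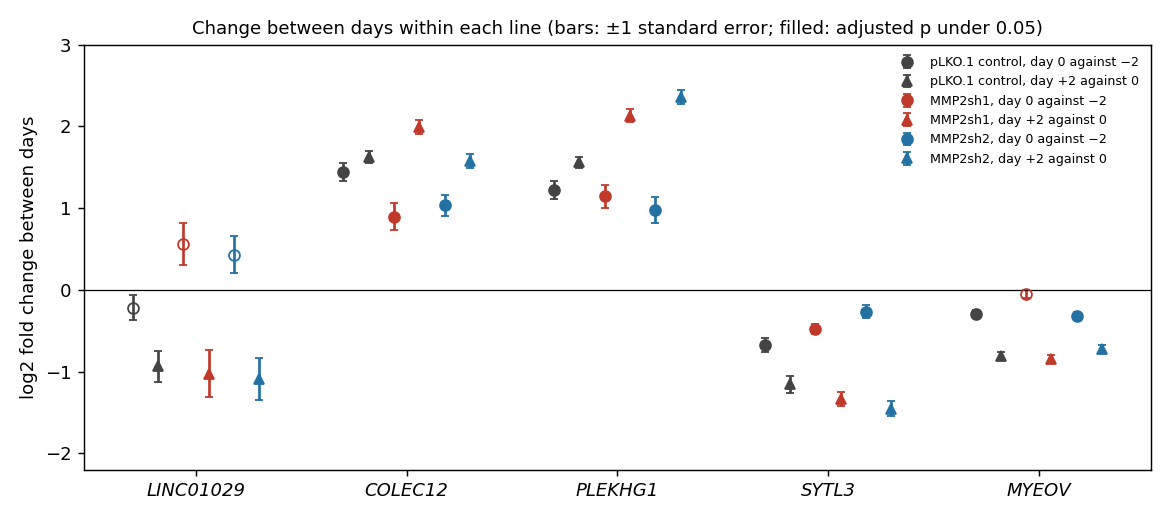
Log2 fold change between successive days for each gene in the pLKO.1 control (black), MMP2sh1 (red) and MMP2sh2 (blue), from day −2 to day 0 (circles) and from day 0 to day +2 (triangles), each from 3 against 3 libraries, with bars of 1 standard error. Filled symbols have an adjusted p under 0.05 in edgeR; all 15 values of the second step are filled, and LINC01029 has no filled circle.

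The values of both comparisons stood side by side as follows. COLEC12 and PLEKHG1 rose with culture in the control and were lower in both shRNA lines, whereas SYTL3 and MYEOV fell with culture and were higher in both. LINC01029 fell with culture in the control and was lower in both shRNA lines. At day 0, PLEKHG1 in both shRNA lines, COLEC12 in MMP2sh1 and MYEOV in MMP2sh2 had libraries within the range of the control at day −2. The comparisons share control libraries, and cell numbers at harvest were not analysed here. The paper gives a growth curve of the control and both shRNA lines. It reports no significant impairment of proliferation in the shRNA lines relative to control. A link between growth and the levels of these genes was not tested.

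A direct comparison of MMP2sh1 with MMP2sh2 asked whether the lines differ from each other, which the selection did not fix. At each day 1 of 5 genes was called, a different one each time, where 10.7% of all genes were called at day −2, 18.5% at day 0 and 7.86% at day +2. At day −2 SYTL3 was higher in MMP2sh1 by 0.30 on the log2 scale (standard error 0.08, adjusted p = 0.011, edgeR). At day 0 MYEOV was higher in MMP2sh1 by 0.18 (standard error 0.04, adjusted p = 0.00089, edgeR). At day +2 PLEKHG1 was lower in MMP2sh1, with a log2 fold change of −0.26 (standard error 0.07, adjusted p = 0.021, edgeR). LINC01029, the gene with the fewest counts, was at −0.34 (standard error 0.28), −0.20 (standard error 0.21) and −0.13 (standard error 0.33) at days −2, 0 and +2. COLEC12 was at −0.07 (standard error 0.18), −0.20 (standard error 0.11) and 0.21 (standard error 0.07, adjusted p = 0.075, edgeR), and was called at day +2 by DESeq2 (adjusted p = 0.049). MMP2 was lower in MMP2sh1 at every day, with log2 fold changes of −1.84 to −1.41. The call of SYTL3 was lost without MMP2sh1 replicate 1 (0.26, adjusted p = 0.061), MMP2sh1 replicate 2 (0.29, adjusted p = 0.059) or MMP2sh2 replicate 1 (0.24, adjusted p = 0.095) of day −2, all from edgeR. That of PLEKHG1 was lost without any 1 of the libraries of day +2 except MMP2sh2 replicate 3, at −0.28 to −0.23.

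The distance from control changed with culture for PLEKHG1. The interaction of line and day, the difference from control at day +2 minus that at day −2, was fitted on 12 libraries, and it called 1 of 5 genes in MMP2sh1 (7.4% of all genes) and 1 of 5 in MMP2sh2 (4.98%). For PLEKHG1 it was 0.51 (standard error 0.14, adjusted p = 0.019, edgeR) in MMP2sh1 and 0.55 (standard error 0.14, adjusted p = 0.020, edgeR) in MMP2sh2, both with the same control libraries. In MMP2sh1 this call was lost without replicate 3 of the control at day −2 (0.39) or at day +2 (0.48), or MMP2sh1 replicate 2 at day +2 (0.48). In MMP2sh2 it was lost without the same control libraries (0.44 and 0.53) or MMP2sh2 replicate 3 at day −2 (0.44). Without replicate 1 of MMP2sh1 at day −2 it was 0.46 in that line (adjusted p = 0.044, edgeR), and MYEOV was called as well, at 0.25 (adjusted p = 0.039, edgeR). LINC01029 was at 0.70 (standard error 0.34) and 0.49 (standard error 0.32), COLEC12 at −0.17 (standard error 0.19) and −0.45 (standard error 0.15), SYTL3 at 0.04 (standard error 0.12) and 0.12 (standard error 0.12) and MYEOV at 0.22 (standard error 0.08) and 0.07 (standard error 0.07), and none of these was called with all 12 libraries.

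The genes most like each member were those with the highest Pearson correlation of log2 CPM with it over the 27 libraries, among 22106 genes. These correlations are descriptions, since the 27 points fall into 9 groups that share their lines and days. COLEC12 was most like PHLDA1 (r = 0.981), FOXP1 (0.979), a forkhead transcription factor, and PLEKHG1 (0.978). PLEKHG1 was most like PHLDA1 (0.987), PLCB1 (0.984), a phospholipase C, and SLITRK6 (0.983), a membrane protein with leucine-rich repeats. PHLDA1 was itself one of the 15 lower genes. SYTL3 was most like MYC (0.979), the proliferation-linked transcription factor, RAB3B (0.976), a GTPase of regulated secretion, and NRG1 (0.975), a ligand of the ERBB receptors. MYEOV was most like RAB11FIP1 (0.976), an effector of RAB11 in recycling endosomes, MYC (0.976) and SLC39A14 (0.975), a zinc and manganese transporter. Between the genes themselves, r was 0.978 for COLEC12 and PLEKHG1, 0.969 for SYTL3 and MYEOV, and −0.979 to −0.966 across these pairs. LINC01029 stood apart, with r between −0.22 and 0.24 for the other 4 genes and at most 0.866 for any gene, SMARCC1, a subunit of the BAF chromatin remodelling complex, followed by RRM2B (0.833) and TMSB4X (0.831).

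Genes of the families or functions of COLEC12 and SYTL3, and genes around MYEOV, were described from lists that leave out the 5 members. The first list held collectins, scavenger receptors and other C-type lectin genes. Of its genes, 14 to 16 of 26 could be tested against control. Over the 6 comparisons 13 of 92 tests were called higher and 7 lower (21.7%). Of the synaptotagmin-like proteins, RAB27 and other RAB27 effectors, 17 or 18 of 18 were tested, with 10 of 105 tests higher and 7 lower (16.2%). Of the genes around MYEOV at 11q13, 14 or 15 of 20 were tested, with 6 of 87 tests higher and 9 lower (17.2%). Over all genes, 12.25% of these tests were called. CCND1, EXPH5, an effector of RAB27, and PPP6R3 were called with one sign in 4 of the 6 comparisons, the most for any listed gene. Their naming was a choice made after their values were seen. The medians of the lists lay between −0.11 and 0.16 on the log2 scale.

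In the control between days −2 and +2, 7 of 15 genes of the first list (collectins, scavenger receptors and other C-type lectin genes) rose and 4 fell. The median log2 fold change was 0.45 against 0.03 over all genes. Past a 2-fold change, 6 rose: CLEC2D, a lectin-like ligand of natural killer cells (2.12), CLEC11A, a secreted lectin (1.62), CD36, a fatty acid and lipoprotein receptor (1.60), ASGR1, a subunit of the asialoglycoprotein receptor (1.43), CLEC2B (1.23) and MRC2, a collagen-binding receptor (1.13). Past it in the other direction were SCARB1, the HDL receptor (−1.74), MARCO, a class A scavenger receptor (−1.87), and OLR1, a receptor of oxidized LDL, which had 34 to 63 counts in the control libraries of day −2 and 0 to 2 in those of day +2. Of the genes named, CD36, SCARB1, MARCO and OLR1 are the scavenger receptors, and the others are C-type lectin genes. CD36 had 10 to 20 counts in the control libraries of day −2 and 27 to 43 in those of day +2. Of the SYTL and RAB27 genes, 5 of 18 rose and 6 fell (median 0.08). SYTL5, a paralog of SYTL3 (1.66), and RAB3D (1.39) rose past a 2-fold change. RAB3D had 5 to 19 counts in the control libraries of day −2 and 20 to 33 in those of day +2. RAB3B (−1.13), UNC13D, a vesicle priming factor (−2.34), and MYRIP, an effector of RAB27, fell past a 2-fold change. MYRIP had 12 to 47 counts at day −2 and 1 to 4 at day +2. Of the 11q13 genes, 2 of 14 rose and 7 fell (median −0.24), with ANO1, a calcium-activated chloride channel, past a 2-fold change at 1.89. Past it only in 1 step of the expansion were RAB3A from day −2 to day 0 (1.31), and CPT1A, the enzyme that feeds fatty acids into mitochondria (−1.45), and MTL5 (−1.03) from day 0 to day +2.

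The nearest expressed genes in chromosome order were described in the same way, up to 5 on each side of each member. They were taken by gene order alone, and their distances in bases were not considered. Of 254 tests of these 48 genes against control, 52 were called (20.5%, against 12.25% over all genes), 34 of them in the direction of the member. The most comparisons in which any of the 48 genes was called was 4 of 6. Each gene counts in up to 6 tests that share control libraries, so the tests are not independent. Around LINC01029, 16 of 55 tests were called, 15 of them lower, and around SYTL3 14 of 51, 11 of them higher. Around COLEC12 6 of 41 were called and 4 were lower, around PLEKHG1 6 of 56 and 3 were lower, and around MYEOV 10 of 51 and 1 was higher. The 5 genes called in 4 of 6 are named here, a choice made after their values were seen. NFATC1 and TSHZ1, at places 2 and −4 in gene order from LINC01029, were each called lower in 4 of 6 comparisons. Their means were −0.29 and −0.17 on the log2 scale. EZR, the gene next to SYTL3, which encodes the membrane-cytoskeleton linker ezrin, was called higher in 4 of 6 with a mean of 0.21. CCND1, which encodes cyclin D1 and is the second kept gene after MYEOV, was called lower in 4 of 6, with a mean of −0.31, the opposite direction to MYEOV. PPP6R3, which encodes a regulatory subunit of a protein phosphatase and lies on the other side of MYEOV, was also called lower in 4 of 6, with a mean of −0.21. Like most neighbours of MYEOV, CCND1 and PPP6R3 are also in the list of genes around it described above. Their calls are counted in both places.

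**Figure D4:**
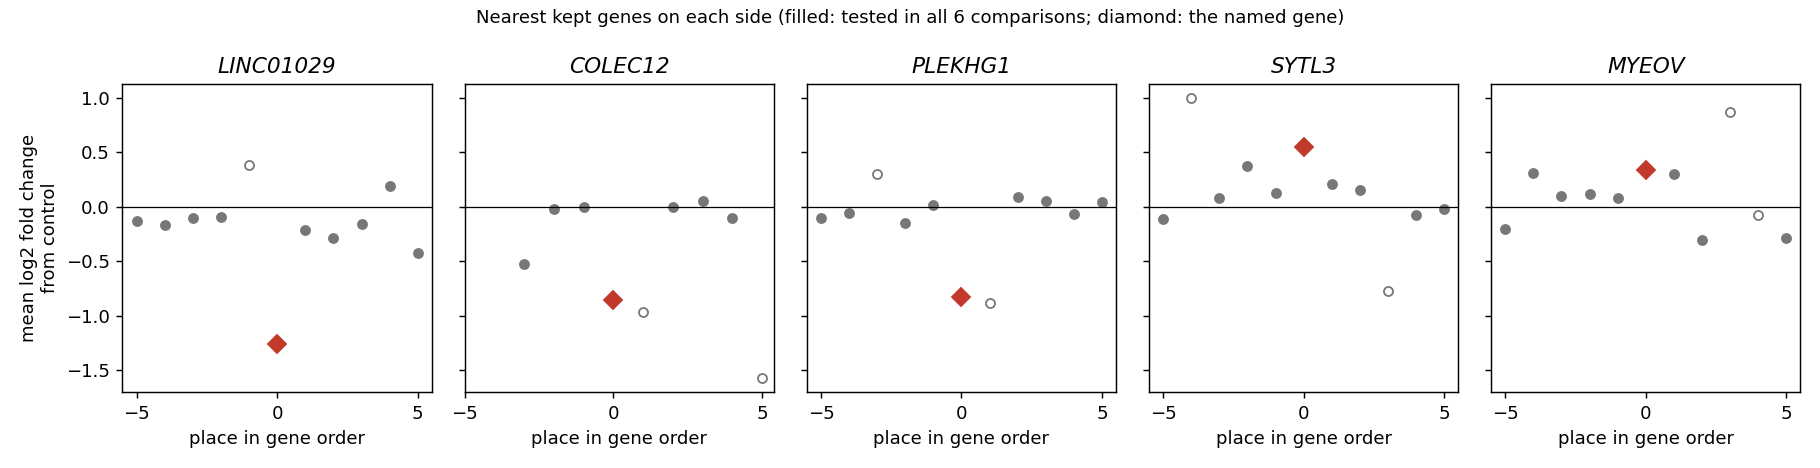
Mean log2 fold change from control over the shRNA comparisons in which a gene was tested, for each member (red diamond) and the nearest kept genes before and after it in chromosome order (grey; filled where tested in all 6 comparisons, open where in fewer). Filled genes lie between −0.53 and 0.37, and each member, whose values are those it was selected on, lies beyond all of its filled neighbours, whereas 5 open genes (CLUL1, ADCYAP1, PDCL3P5, SRP72P2 and FGF4) lie beyond their member.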

How the data were processed

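The deposited values are unnormalized counts of reads for each gene symbol, which the authors made by trimming reads with Trim Galore 0.6.0, aligning them to hg19 with STAR 2.7.3a, removing low quality alignments with Samtools and counting exon reads without strand with HTSeq 2.0.0. The annotation used for counting is not given in the sources used here. HTSeq lines that name no gene (16.8% to 19.1% of the counted total) were left out. Samples were grouped by line and day from their labels, and the study describes the 3 replicates of a group as independent.

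Every comparison of 3 with 3 libraries had a separate edgeR 4.0.16 fit (R 4.3.3, TMM, filterByExpr with a minimum count of 10 and a minimum total of 15, two-sided quasi-likelihood test, Benjamini-Hochberg adjustment over all genes tested, called under 0.05). The interaction used 12 libraries. A standard error is the size of the log2 fold change divided by the square root of F. All 5 genes passed the filter in every comparison. Levels are CPM with TMM factors of all 27 libraries. Correlations used log2 CPM with a prior count of 2. The fits were tested on simulated data. The members and lists were chosen with earlier results of these data known. Genes other than members were named by rule: the 3 most alike, those beside a member in the order of change, list genes called past a 2-fold change between control days, and neighbours called in all 6 comparisons. No neighbour was, so the neighbours named were chosen after their values were seen. The same holds for CCND1, EXPH5 and PPP6R3, named as the list genes with the most comparisons called. Of 55882 symbols, 33868 matched GENCODE on GRCh37, and promoter windows were from RefSeq on GRCh38.p14.

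Alternatives were DESeq2 1.42.0, median-of-ratios scaling, no filter, at least 10 counts in every library, all 27 libraries in 1 fit, the replicate number as a block and each library left out. The ChIP-Seq data of the study were not used here. The result of 1 further gene list is not reported here.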

Additional observations from a re-analysis of the deposited data

Results flagged for a closer look

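The 5 results here are differences between lines or in the change of a line over days, each from edgeR's own test of the difference. SYTL3 was higher in MMP2sh1 than in MMP2sh2 at day −2 by 0.30 on the log2 scale. That call was lost without replicate 1 or 2 of MMP2sh1 or replicate 1 of MMP2sh2 at day −2. MYEOV was higher in MMP2sh1 at day 0 by 0.18. PLEKHG1 was lower in MMP2sh1 at day +2, with a log2 fold change of −0.26. That call of PLEKHG1 was lost without any 1 library of day +2 except MMP2sh2 replicate 3, and with all 27 libraries in 1 fit. The distance of PLEKHG1 from control became smaller from day −2 to day +2, by 0.51 in MMP2sh1 and by 0.55 in MMP2sh2 on the log2 scale, where both values rest on the same control libraries. Both calls were lost without replicate 3 of the control at day −2 or at day +2, and each without 1 library of its own line. With replicate 1 of MMP2sh1 at day −2 left out, which stood apart from its group, the value of SYTL3 was 0.26 and was no longer called (adjusted p = 0.061, edgeR), and that of PLEKHG1 in MMP2sh1 was 0.46 (adjusted p = 0.044, edgeR). No outlier test of single values was run in groups of 3.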

How the results depend on the processing

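Of the single-gene values under the alternatives, 1204 kept their direction and their side of the threshold, 34 lost the call, 14 gained one and 8 changed sign. The comparisons with control, on which the genes were selected, gave 343 of those kept and 17 of those lost. The other comparisons gave 861 of those kept, 17 of those lost and all of those that gained a call or changed sign. The number of the 5 genes called in all 6 shRNA comparisons was 3 to 5, and of all genes 13 to 24, with 1 of the 27 libraries left out. The loss of a member followed from 12 of these libraries (SYTL3 in 6, COLEC12 in 5, LINC01029 in 2, MYEOV in 1, PLEKHG1 in 0). With all 27 libraries in 1 fit PLEKHG1 was lost, at an adjusted p of 0.051 (edgeR) in MMP2sh2 at day +2. Between the shRNA lines, 0 to 1 of the 5 genes were called at day −2 and 0 to 1 at day +2 with a library left out, and at day +2 DESeq2 called 2 and the fit of all 27 libraries 0. In the interaction, DESeq2 and the fit of all 27 libraries called 2 in MMP2sh1 and 0 to 2 were called with a library left out; in MMP2sh2, 2 were called without a filter on low counts and 0 to 1 with a library left out.

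Signs changed only with a library left out and only in values that were not called. Between the shRNA lines these were COLEC12 at day −2 (−0.293 to 0.140), PLEKHG1 at day 0 (−0.103 to 0.0771) and LINC01029 at day +2 (−0.364 to 0.0791). In the interaction in MMP2sh1 they were COLEC12 (−0.370 to 0.0247) and SYTL3 (−0.0453 to 0.124). The causes were not tested. LINC01029 had the fewest counts of the 5 genes, 36 in its lowest library.

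The deviations of libraries with the same replicate number had correlations of −0.025 to 0.036 over genes. No pairing by number was seen in them, but noise in the counts can hide one, so pairing is not excluded. With the replicate number as a block, 2 of the 5 genes were called between the shRNA lines at day +2, where COLEC12 was added (0.21, adjusted p = 0.038, edgeR), and the number of genes called in all 6 comparisons was 25. The block changed no other call of the 5 genes.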
